A study of Mus musculus with 4 samples.

Results

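The genes described here encode the B cell receptor's signalling chains, its coreceptors, kinases and adaptors, and the surface proteins and transcription factors by which B cells are recognised. They were taken as 32 named symbols, and all 32 had a row among the 24043 rows of a gene expression table from sorted mouse mammary tumor cells. The mice were MMTV-PyMT females, in which a viral oncogene expressed in mammary epithelium causes tumors, and they carried R26Y, a YFP reporter switched on by Cre at the Rosa26 locus. In both groups an adenovirus with Cre under the Krt8 promoter (Ad-K8-Cre), which is active in luminal epithelium, was injected into the mammary ducts, and YFP+ cells were sorted 2 to 3 months later. The control group (2 libraries) was Lsd1+/+, and the experimental group (2 libraries) carried conditional Lsd1 alleles (Lsd1L/L) per the study's design. The tissue label of the second group reads Lsd1+/+ while its title and genotype label say knockout, so these are called the labelled-knockout libraries. The mice's age and the number of animals behind each library are not given in the labels, and the p-values thus reflect no more than the variation among these 4 libraries.

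B cells detect antigen with a membrane immunoglobulin that cannot signal by itself. The chains CD79A and CD79B pass the signal on: the kinases LYN and BLK phosphorylate their tyrosine motifs, SYK binds there, and SYK with BTK and the adaptor BLNK switches on the phospholipase PLCG2. Coreceptors set the threshold, and the transcription factors EBF1 and PAX5 establish and hold B cell identity. Mammary epithelium does not use this receptor, whereas SYK, LYN, BTK, PLCG2, BLNK and several of the surface proteins also work in macrophages and other myeloid cells.

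Promoter sequence is shown for 4 of these genes. Cd79a was the most abundant of the 32 in the labelled-knockout libraries, Cd22 and Fcrl1 are B-restricted, and Blnk was already abundant in wild-type. Cd22, Fcrl1 and Blnk were taken from the genes that held a motif, so the 4 overstate how common motifs were. Of the 4 only Cd79a passed the test of difference between the groups given below. The RefSeq promoter table (GRCm38.p6, another build than the mm9 of the expression data) held 33 windows for 27 of the 32 genes, each with 250 bases before and 50 after a start site. Printed are the 250 bases before the start site, 5′ to 3′, with capitals for a match to 1 of 3 motifs searched on both strands: the octamer ATGCAAAT, bound by POU2F2 with POU2AF1; an EBF1-type core, TCCC and GGGA with any 2 bases between; and GAGGAAGT, a PU.1-type core. Cd79a lies at chr7:24897247-24897496 on the plus strand, Cd22 at chr7:30879029-30879278 on the minus strand, Fcrl1 at chr3:87376137-87376386 on the plus strand and Blnk at chr19:40994222-40994471 on the minus strand.
Cd79a: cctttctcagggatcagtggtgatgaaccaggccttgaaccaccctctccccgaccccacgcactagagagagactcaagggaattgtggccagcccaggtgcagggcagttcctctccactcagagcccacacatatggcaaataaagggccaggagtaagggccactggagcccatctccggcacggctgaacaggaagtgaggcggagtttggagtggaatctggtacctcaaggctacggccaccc
Cd22: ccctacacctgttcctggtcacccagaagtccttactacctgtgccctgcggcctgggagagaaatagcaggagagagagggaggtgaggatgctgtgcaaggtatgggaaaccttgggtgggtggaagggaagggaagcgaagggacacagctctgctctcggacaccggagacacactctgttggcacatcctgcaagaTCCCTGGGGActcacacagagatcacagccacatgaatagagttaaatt
Fcrl1: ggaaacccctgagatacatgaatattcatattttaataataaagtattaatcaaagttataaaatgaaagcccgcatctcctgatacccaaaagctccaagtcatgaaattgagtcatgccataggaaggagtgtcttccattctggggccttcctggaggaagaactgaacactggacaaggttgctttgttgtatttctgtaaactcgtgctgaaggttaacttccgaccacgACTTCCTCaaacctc
Blnk: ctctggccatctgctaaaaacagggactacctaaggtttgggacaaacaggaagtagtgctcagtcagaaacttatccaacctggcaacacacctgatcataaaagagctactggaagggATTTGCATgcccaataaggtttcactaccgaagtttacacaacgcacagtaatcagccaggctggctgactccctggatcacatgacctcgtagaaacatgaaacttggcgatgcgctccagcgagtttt

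The Cd79a window held no exact match to any of the 3 motifs. Only exact matches were searched, so a site that differs from a motif by a base was not counted. Cd22 had the EBF1-type core starting at position -49 from the start site, Fcrl1 the PU.1-type core at -15 and Blnk the octamer at -130, the last 2 as reverse complements. Among the 27 genes the octamer stood in 1 and the EBF1-type core in 1, against 1.97% and 1.06% of the 27025 genes in the table. The PU.1-type core stood in 3, namely Fcrl1, Cd37 and Cd72, against 3.69% of all genes. None of the genes that held a motif passed the test of difference between the groups given below. The motifs are matches of letters in a short window and say nothing of binding.

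Values are FPKM, reads per gene scaled by transcript length and library total, so levels of different genes can be set side by side. The 4 columns summed to between 401786 and 449838 FPKM. No read totals were given; steps between low values put the depth of the libraries at 0.85 to 1.03 times that of the second labelled-knockout library. The wild-type libraries were far less alike than the labelled-knockout libraries (Pearson r across 11138 genes of 0.85 and 0.98 on log2(FPKM + 1); genes are not independent replicates). Kdm1a, which encodes LSD1, was at 52.5 and 22.9 FPKM in the wild-type pair and at 20.2 and 22.8 FPKM in the labelled-knockout libraries (log2 difference -0.67, SE 0.46; limma, adjusted p = 0.34), so the second wild-type library was level with the labelled-knockout libraries. A gene-level value does not separate the deleted exons.

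Most of the B cell genes were near the floor of the table in the first wild-type library. Fewer were in the second, which lay above both labelled-knockout libraries for 10 of the 32 (43.4% of all tested genes). All 10 were genes that other cells share, by a split given below. In the first wild-type library 21 of the 32 were below 1 FPKM and 9 of these were listed at 0. In the second 8 were below 1 FPKM, 6 of them among the 13 genes restricted mainly to B cells. The labelled-knockout libraries were close to each other: their values differed by less than 1.5 times for 30 of the 32, the exceptions being Pax5 and Cd180, both low. Of the 31 genes that reached 1 FPKM in at least 2 libraries and were tested, 14 rose, none fell and 17 did not pass an adjusted p of 0.05 (limma on log2(FPKM + 1), Benjamini-Hochberg). Over all 11138 tested genes 9.51% rose and 6.99% fell. The median log2 difference was 2.59 over the 31 genes and 0.08 over all tested genes.

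Of the 31, 8 were tested only because of the labelled-knockout libraries, being under 1 FPKM in both wild-type libraries, so these counts describe the genes and are no support for a change. Among the 14 calls, 7 were of genes that passed the filter with a wild-type library. The rest, Fcer2a, Cr2, Fcrla, Blk, Pax5, Spib and Pou2af1, were tested only through the group where they were high. All 14 calls ended without either labelled-knockout library (0 of 31), and with no filter on low values (0 of 32). In bulk RNA, fewer cells of a type and less RNA per cell cannot be told apart.

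**Figure D1:**
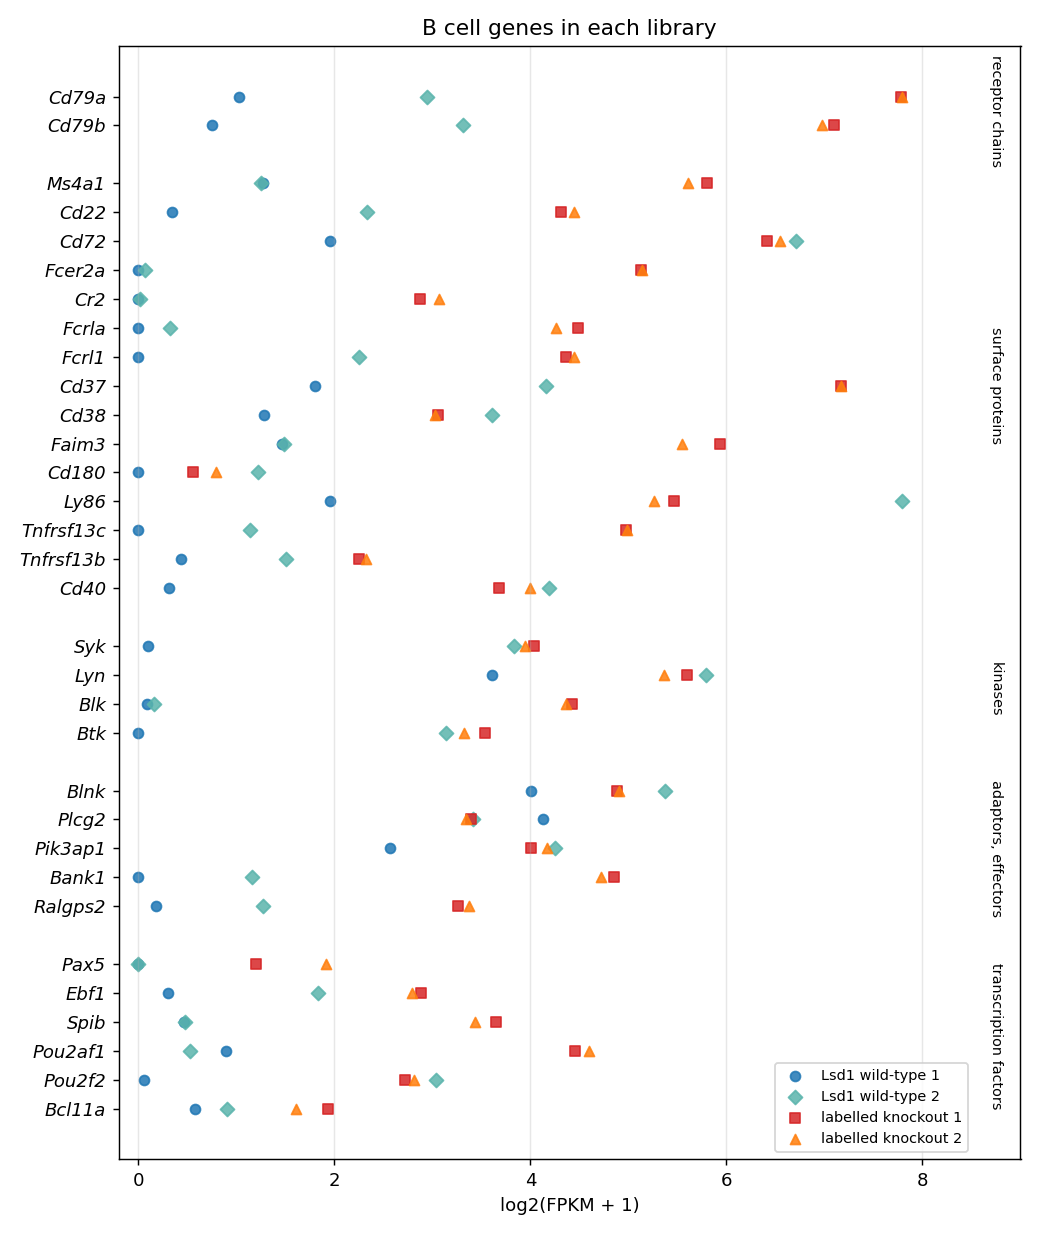
Level of each of the 32 genes, as log2(FPKM + 1) on the horizontal axis, with 1 point per library and genes grouped by role. The points of the labelled-knockout libraries lie close together in nearly every row, at the right for Cd79a and Cd79b, while the second wild-type library lies beside or beyond them for Cd72, Ly86, Lyn, Blnk and others.

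The receptor's signalling chains were among the most abundant of these genes in the labelled-knockout libraries. Cd79a was at 1.04 and 6.71 FPKM in the wild-type pair and at 219.6 and 221 FPKM in the labelled-knockout libraries. It rose by 5.80 on the log2 scale (SE 0.71; limma, adjusted p = 0.029), and the ratio of mean FPKM was 56.8. Cd79b was at 0.685 and 8.92 FPKM in the wild-type pair and at 136 and 125 FPKM in the labelled-knockout libraries, a rise of 5.01 (SE 0.93; adjusted p = 0.045). For both chains the groups did not overlap, and the second wild-type library held 6.43 and 13.0 times the level of the first. Over all tested genes, both labelled-knockout libraries lay above both wild-type libraries in 39.3% and below both in 32.1%. The call of Cd79b ended with a pseudocount of 0.1 (adjusted p = 0.066).

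Among the 15 genes grouped as surface proteins, which include the intracellular Fcrla, 6 rose and 8 did not pass, and Cd180 was not tested. For this role and those below, the share that rose over all tested genes was 9.51%. Ms4a1, which encodes the B cell antigen CD20, was at 1.41 and 1.38 FPKM in the wild-type pair and at 54.9 and 47.7 FPKM in the labelled-knockout libraries (rise of 4.45, SE 0.21; adjusted p = 0.023). Its wild-type libraries were level with each other, unlike those of Cd79a. Fcer2a, the low-affinity IgE receptor CD23 of mature follicular B cells, was listed at 0 and at 0.0448 FPKM in the wild-type pair and was at 34.0 and 34.3 FPKM in the labelled-knockout libraries (rise of 5.10, SE 0.21; adjusted p = 0.023). Cr2, the complement receptor CD21, was listed at 0 and at 0.0152 FPKM in the wild-type pair and was at 6.31 and 7.39 FPKM in the labelled-knockout libraries (rise of 2.96, SE 0.21; adjusted p = 0.024). Both receptors were thus at or near 0 in both wild-type libraries.

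Tnfrsf13c, the receptor for the survival factor BAFF, was listed at 0 and at 1.21 FPKM in the wild-type pair and was at 30.6 and 30.8 FPKM in the labelled-knockout libraries (rise of 4.41, SE 0.46; adjusted p = 0.025). This call ended with a pseudocount of 0.1 (adjusted p = 0.060). Fcrla, an Fc receptor-like protein held inside B cells, was listed at 0 and at 0.251 FPKM in the wild-type pair against 21.4 and 18.2 FPKM, a rise of 4.21 (SE 0.25; adjusted p = 0.024). Faim3, the IgM Fc receptor, which T cells can also carry, was at 1.76 and 1.81 FPKM in the wild-type pair and at 59.9 and 45.6 FPKM in the labelled-knockout libraries (rise of 4.26, SE 0.24; adjusted p = 0.024). For these 3 genes both labelled-knockout libraries lay above both wild-type libraries, as in 39.3% of all tested genes.

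The inhibitory coreceptor Cd22 was at 0.271 and 4.04 FPKM in the wild-type pair and at 18.9 and 20.7 FPKM in the labelled-knockout libraries (log2 difference 3.04, SE 0.74; adjusted p = 0.067). Fcrl1, an Fc receptor-like activating protein, was listed at 0 and at 3.75 FPKM in the wild-type pair and was at 19.5 and 20.8 FPKM in the labelled-knockout libraries (3.28, SE 0.83; adjusted p = 0.072). The tetraspanin Cd37 was at 2.48 and 16.8 FPKM in the wild-type pair and at 143 FPKM in each labelled-knockout library (4.19, SE 0.86; adjusted p = 0.052). None of the 3 passed. In each, both labelled-knockout libraries lay above both wild-type libraries, as in 39.3% of all tested genes. The second wild-type library stood above the first in each. With weights per genotype group all 3 passed (limma, adjusted p = 0.021, 0.021 and 0.013). Cd37 also passed with the replicate block (limma, adjusted p = 0.0499), a filter at 5 FPKM (0.047) and a common total (0.045). Tnfrsf13b, the receptor TACI, was low throughout, at 0.347 and 1.85 FPKM in the wild-type pair and at 3.77 and 3.99 FPKM in the labelled-knockout libraries (adjusted p = 0.11).

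The other 5 surface proteins had their highest value in the second wild-type library. Ly86, also called MD-1, which partners the receptor CD180, was at 2.87 and 221 FPKM in the wild-type pair and at 43.1 and 37.4 FPKM in the labelled-knockout libraries (adjusted p = 0.88). Cd72, a further inhibitory coreceptor, was at 2.89 and 104 FPKM in the wild-type pair and at 84.5 and 92.3 FPKM in the labelled-knockout libraries (adjusted p = 0.41). Cd40, the receptor for T cell help, was at 0.244 and 17.2 FPKM in the wild-type pair and at 11.8 and 15.0 FPKM in the labelled-knockout libraries (adjusted p = 0.45). For these genes the groups overlapped, because the wild-type libraries lay on either side of the labelled-knockout libraries. The ectoenzyme gene Cd38 was at 1.43 and 11.2 FPKM versus 7.33 and 7.15 FPKM (adjusted p = 0.64), and Cd180 was listed at 0 and at 1.33 FPKM versus 0.473 and 0.731 FPKM.

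Of the 4 kinases 1 rose and 3 did not pass. Blk, a Src family kinase used mainly by B cells, was at 0.0665 and 0.12 FPKM in the wild-type pair and at 20.5 and 19.5 FPKM in the labelled-knockout libraries (rise of 4.26, SE 0.21; adjusted p = 0.024). The other 3 kinases, which myeloid cells also use, did not pass. Lyn, the other Src family kinase, was at 11.2 and 54.4 FPKM in the wild-type pair and at 47.5 and 40.2 FPKM in the labelled-knockout libraries (0.78, SE 0.81; adjusted p = 0.51). Syk was at 0.0694 and 13.2 FPKM versus 15.4 and 14.4 FPKM (2.03, SE 1.35; adjusted p = 0.33), and Btk was listed at 0 and at 7.83 FPKM versus 10.6 and 8.97 FPKM (1.86, SE 1.15; adjusted p = 0.30). For Syk and Btk both labelled-knockout libraries lay above both wild-type libraries, as in 39.3% of all tested genes. Yet the second wild-type library was only slightly below the labelled-knockout pair. The mean of that pair was 1.13 times the second wild-type value for Syk and 1.25 times for Btk.

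Of the 5 adaptors and effectors 2 rose and 3 did not pass. Bank1, a B cell scaffold that links the receptor to calcium release, was listed at 0 and at 1.23 FPKM in the wild-type pair and was at 28.0 and 25.3 FPKM in the labelled-knockout libraries (rise of 4.21, SE 0.46; adjusted p = 0.027). Ralgps2, an exchange factor for Ral GTPases, was at 0.135 and 1.41 FPKM in the wild-type pair and at 8.56 and 9.36 FPKM in the labelled-knockout libraries (rise of 2.59, SE 0.44; adjusted p = 0.040). Both calls ended with a pseudocount of 0.1 (adjusted p = 0.063 and 0.078), and that of Ralgps2 also with the replicate block (adjusted p = 0.051). The other 3, which form the core of the signal relay, were at 4.92 FPKM or more in all 4 libraries. The adaptor Blnk was at 15.1 and 40.5 FPKM in the wild-type pair and at 28.6 and 28.8 FPKM in the labelled-knockout libraries (adjusted p = 0.80). The phospholipase Plcg2 was at 16.5 and 9.64 FPKM versus 9.49 and 9.16 FPKM (-0.40, SE 0.32; adjusted p = 0.41), the one gene of the 31 with a negative difference. Pik3ap1, also called BCAP, which couples the receptor to PI3 kinase, was at 4.92 and 18.0 FPKM versus 15.0 and 17.0 FPKM (adjusted p = 0.47).

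Of the 6 transcription factor genes 3 rose and 3 did not pass, and all 6 were below 1 FPKM in the first wild-type library. Pax5, which holds cells in the B lineage, was listed at 0 in both wild-type libraries and was at 1.29 and 2.77 FPKM in the labelled-knockout libraries (rise of 1.56, SE 0.29; adjusted p = 0.046). Besides the settings above, that call ended with a plain prior (adjusted p = 0.050), with quantile normalization (0.052), with the replicate block (0.055) and with weights per genotype group (0.18). Pou2af1, the octamer coactivator OBF-1, was at 0.864 and 0.444 FPKM in the wild-type pair and at 21.0 and 23.2 FPKM in the labelled-knockout libraries (rise of 3.81, SE 0.25; adjusted p = 0.024). Spib, an Ets factor of B cells and plasmacytoid dendritic cells, was at 0.38 and 0.389 FPKM in the wild-type pair and at 11.5 and 9.80 FPKM in the labelled-knockout libraries (rise of 3.07, SE 0.22; adjusted p = 0.024). The groups were far apart for Pou2af1 and Spib.

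Ebf1, which acts upstream of Pax5 and is also expressed in stromal and fat cell precursors, was at 0.234 and 2.56 FPKM in the wild-type pair and at 6.39 and 5.94 FPKM in the labelled-knockout libraries (1.77, SE 0.59; adjusted p = 0.11, and 0.0498 with weights per genotype group). Bcl11a was at 0.495 and 0.873 FPKM versus 2.83 and 2.05 FPKM (1.03, SE 0.24; adjusted p = 0.062). Pou2f2, the octamer-binding partner of Pou2af1, was at 0.0372 and 7.23 FPKM versus 5.60 and 6.02 FPKM (1.22, SE 1.09; adjusted p = 0.45). Pou2f2 thus had its highest value in the second wild-type library, where its coactivator Pou2af1 was below 1 FPKM.

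**Figure D2:**
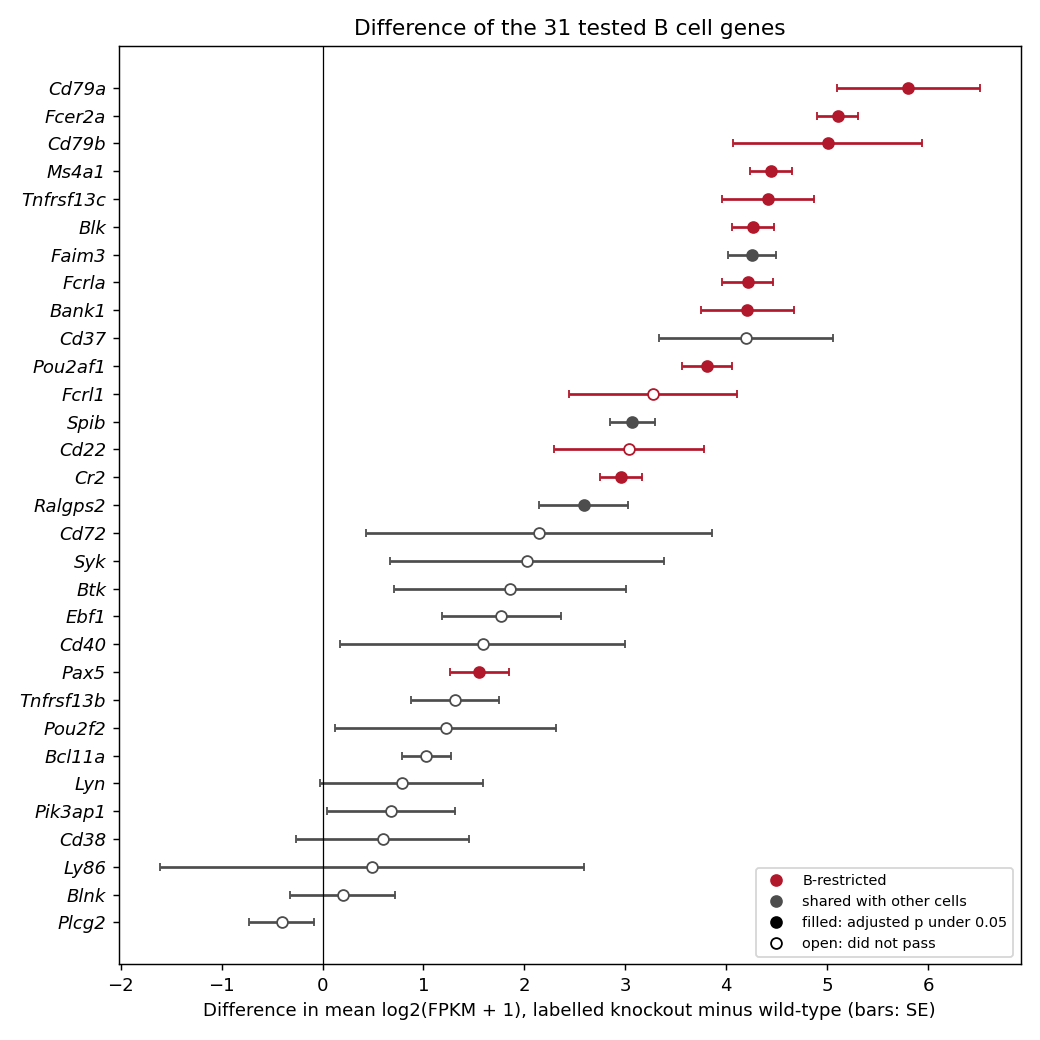
Difference in mean log2(FPKM + 1), labelled-knockout libraries minus wild-type, for the 31 tested genes with standard errors (2 libraries per group); filled points passed an adjusted p of 0.05. Filled points run from 1.56 for Pax5 to 5.80 for Cd79a, and the genes with the widest bars, Ly86 and Cd72, are those whose wild-type libraries differed most.

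The 32 genes were split by whether other blood or stromal cells are known to use them. This split was added after the data were seen, so its contrasts describe the genes and are no support for a difference. Of 13 genes restricted mainly to B cells, 11 rose and 2 did not pass, with a median log2 difference of 4.21. Of the other 19, which other cells share, 18 were tested, 3 rose (Spib, Faim3 and Ralgps2) and 15 did not pass, with a median of 1.45. Both groups contain genes tested through the labelled-knockout libraries alone, 6 of the 13 and 2 of the 18, and the difference between the 2 groups was not tested. In all 13 B-restricted genes both labelled-knockout libraries lay above both wild-type libraries, as they did in 9 of the 19 shared genes. Over all tested genes the share was 39.3%, near that of the shared genes.

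The second wild-type library was then compared with the labelled-knockout pair alone. It lay above both labelled-knockout libraries in 10 of the 19 shared genes, in 0 of the 13 B-restricted ones and in 43.4% of all tested genes, so the shared genes were near the background here too. On the log2(FPKM + 1) scale, the mean of the labelled-knockout libraries exceeded this library by a median of 3.84 for the B-restricted genes, and was below it by a median difference of -0.04 for the shared ones. With the first wild-type library left out, the median log2 difference was 3.84 for the B-restricted and 0.06 for the shared genes, and 13 and 7 of them rose while 4 shared genes fell (Ly86, Cd38, Blnk and Lyn), against 37.3% of all genes that rose and 32% that fell. Without the second wild-type library the medians were 4.40 and 2.89, and 13 and 17 rose while Plcg2 fell, against 38.3% and 32.7% of all genes. A fit with a lone wild-type library takes it to vary like the labelled-knockout pair.

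**Figure D3:**
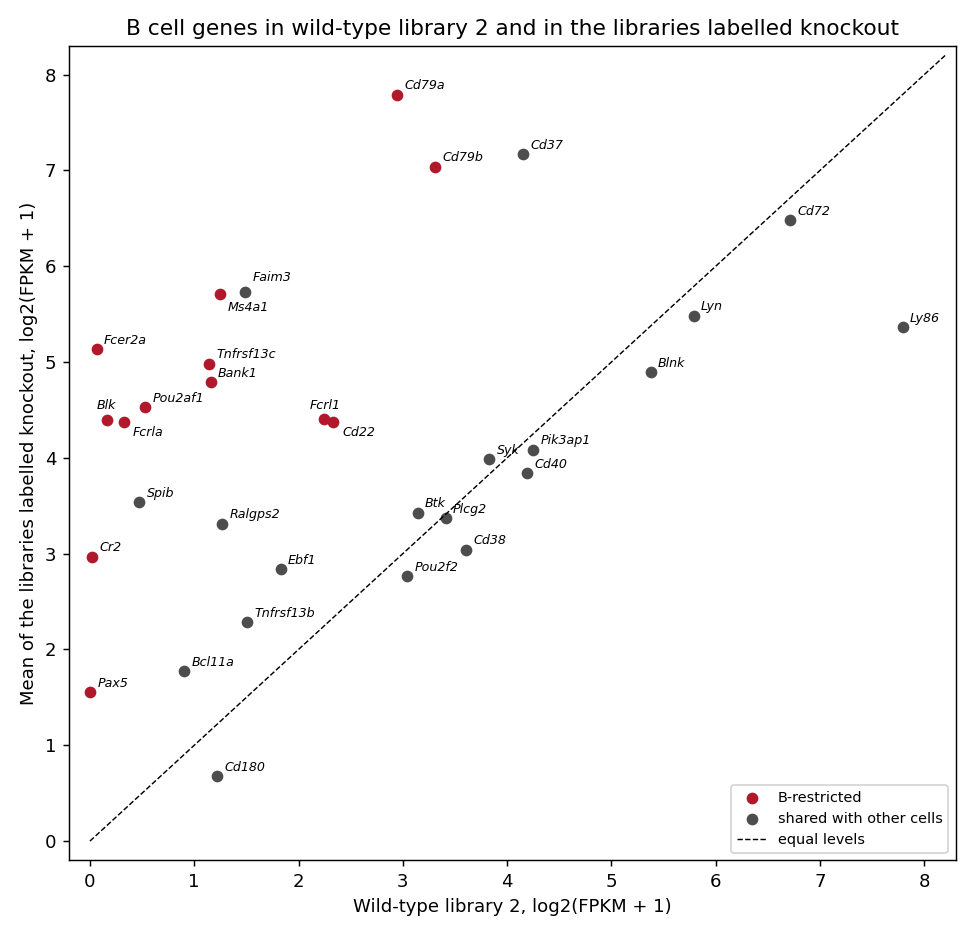
Level of each of the 32 genes in the second wild-type library (horizontal axis) against the mean of the labelled-knockout libraries (vertical axis), both as log2(FPKM + 1), with a dashed line at equal levels. All B-restricted genes lie above the line, and 10 shared genes, among them Ly86, Cd72 and Lyn, lie below it.

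Most other genes of the B cell receptor pathway had positive differences, though most did not pass. Of 35 that were listed, all were tested, 7 rose, 1 fell and 27 did not pass, with a median log2 difference of 1.54. The difference was positive in 30 and negative in 5. Both labelled-knockout libraries lay above both wild-type libraries in 26 of the 35 and below both in 3 (39.3% and 32.1% of all tested genes). Over all tested genes 9.51% rose, 6.99% fell and the median was 0.08. Cd81, a tetraspanin that many other cells carry, fell from 398 and 345 FPKM to 71.0 and 67.1 FPKM (by 2.41, SE 0.16; adjusted p = 0.024). Siglecg, an inhibitory lectin of B cells, rose by 3.29 (SE 0.28) and the ubiquitin ligase Cblb by 2.63 (SE 0.25; adjusted p = 0.024 each). Rasgrp1, Rel and Fyn, named after their values were seen, also rose, and T cells use all of them too. With the replicate block 4 of the 35 rose in place of 7, and with weights per genotype group 13 did. The inhibitory Fc receptor Fcgr2b, which macrophages share, was at 2.11 and 106 FPKM in the wild-type pair and at 32.7 and 28.2 FPKM in the labelled-knockout libraries, highest in the second wild-type library as Ly86 was.

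Genes of B cell stages and niches were read beside these. The counts of this and the later lists stand against 9.51% of all tested genes that rose and 6.99% that fell. Like the members, several lists hold genes under 1 FPKM in both wild-type libraries, such as Cxcr5, Ikzf3, Rgs13 and Mef2b. Such genes were tested only through the labelled-knockout libraries, so the counts describe the lists and are no support for a change. The heavy chain genes Ighm and Ighd had no row. In the list for follicular and naive B cells 7 of 10 measured genes rose, among them Fcer2a and Cr2, and 3 did not pass. Cxcr5, the receptor that guides B cells to follicles, was at 0.188 and 0.776 FPKM in the wild-type pair and at 19.2 and 16.6 FPKM in the labelled-knockout libraries (rise of 3.70, SE 0.30). The lymphoid zinc finger gene Ikzf3 rose by 3.72 (SE 0.24), and the homing receptor gene Ccr7, which naive T cells also express, rose by 5.31 (SE 0.57). Of 4 tested precursor genes 2 rose, Dntt and Vpreb3, and levels were low: Rag1 and Rag2 were listed at 0 in all 4 libraries, Igll1 reached 1.01 FPKM at most, and Vpreb3 went from 0.382 and 0.922 FPKM to 5.50 and 5.30 FPKM (1.97, SE 0.26; adjusted p = 0.031). In the germinal centre list 3 of 5 tested genes rose: Fas, which other cells also express, by 1.67 (SE 0.19), Rgs13 by 2.20 (SE 0.30) and Mef2b by 1.57 (SE 0.23).

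In the marginal zone and B1 list 2 of 8 tested genes rose, Dtx1 by 3.38 (SE 0.22) and Cd5, which T cells carry too, by 4.62 (SE 0.35), and Cd9, a tetraspanin also abundant in epithelium, fell by 2.41 (SE 0.46). In the plasma cell list 1 of 9 tested genes rose, near the 9.51% over all tested genes, and 8 did not pass. Of the 9, 6 had a negative difference. The immunoglobulin joining chain gene Igj was at 0.0597 and 44.0 FPKM in the wild-type pair and at 60.9 and 62.3 FPKM in the labelled-knockout libraries. The second wild-type library therefore held Igj at a level near that of the labelled-knockout libraries, while Ms4a1 was at 1.38 FPKM and Pax5 was listed at 0 in it. Tnfrsf17, the plasma cell receptor BCMA, was below 1 FPKM in all 4 libraries, and Irf4 rose by 1.98 (SE 0.33; adjusted p = 0.039).

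Signals that B cells receive were measured in the same libraries. Cd40lg, the T cell ligand of CD40, was listed at 0 and at 0.83 FPKM in the wild-type pair and was at 18.0 and 19.5 FPKM in the labelled-knockout libraries (rise of 3.87, SE 0.38; adjusted p = 0.024), while its receptor gene Cd40 did not pass. Tnfsf13, which encodes APRIL, a ligand of TACI, fell from 21.3 and 15.4 FPKM to 1.86 and 2.70 FPKM (by 2.56, SE 0.29; adjusted p = 0.027), and the helper cytokine gene Il4 was listed at 0 in both wild-type libraries and was at 2.63 and 2.24 FPKM in the labelled-knockout libraries. Tnfsf13b, which encodes BAFF, was at 0.582 and 17.0 FPKM in the wild-type pair against 0.98 and 1.01 FPKM, so it was high in the second wild-type library alone, while its receptor gene Tnfrsf13c was high in the labelled-knockout libraries. Cxcl13, the chemokine for CXCR5, was likewise highest in the second wild-type library, at 82.3 FPKM, and below 1 FPKM in the other 3. B cells share the class II presentation list with macrophages and dendritic cells. In it 1 of 11 genes rose, near the 9.51% over all tested genes, and 10 did not pass. That gene was H2-Oa, a modulator of peptide loading typical of B cells, which was listed at 0 and at 1.08 FPKM in the wild-type pair and was at 29.2 and 28.3 FPKM in the labelled-knockout libraries (rise of 4.37, SE 0.43; adjusted p = 0.024). Its partner H2-Ob was at 0.674 and 6.51 FPKM versus 44.3 and 50.6 FPKM (adjusted p = 0.054).

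T cell and NK cell markers moved with the B cell genes and epithelial markers the other way. The part of these cells in the results was not tested. The B-restricted genes summed to 4.34 and 28.1 FPKM in the wild-type pair and to 612 and 597 FPKM in the labelled-knockout libraries. The T cell list rose in 11 of 12 genes and summed to 14.7 and 52.7 FPKM versus 1494 and 1449 FPKM. All 8 NK cell genes rose, with sums of 1.65 and 17.0 against 328 and 313 FPKM. Among them Klrd1, Ncr1, Eomes and Prf1 were under 1 FPKM in both wild-type libraries, so these calls are no support for a change. The summed B-restricted level was 0.294, 0.533, 0.410 and 0.412 times the summed T cell level in the wild-type and labelled knockout libraries in turn. The wild-type ratios rest on low sums, with 7 of the 13 B-restricted genes listed at 0 in the first library. In the labelled-knockout libraries Cd79a and Cd79b made up most of the B-restricted sum. In the epithelial list 1 of 10 genes fell and 9 did not pass, all 10 had negative differences, and the sums were 12238 and 2728 FPKM versus 724 and 748 FPKM. Epithelial markers such as Krt8 (255 and 259 FPKM in the labelled-knockout libraries) and Epcam (116 and 117 FPKM) were thus present beside the B cell markers.

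The macrophage list followed the second wild-type library and not the genotype labels. Its 10 genes summed to 733 and 19798 FPKM in the wild-type pair and to 618 and 651 FPKM in the labelled-knockout libraries. Apoe made up most of each sum, at 543 and 15205 FPKM versus 389 and 433 FPKM. Yet all 10 genes were highest in the second wild-type library. None of the 10 passed (limma, 1 had an unadjusted p under 0.05). The shared B cell genes summed to 61.1 and 531 FPKM in the wild-type pair and to 516 and 497 FPKM in the labelled-knockout libraries. In the second wild-type library Ly86 (221 FPKM) and Cd72 (104 FPKM) made up most of that sum, whereas Faim3, Spib, Cd37 and Ralgps2 lay well below both labelled-knockout libraries there, so the sum does not stand for each shared gene.

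Lists for other myeloid and stromal cells moved in different directions. In the neutrophil list 3 of 7 tested genes rose and 4 did not pass, with sums of 572 and 615 FPKM versus 1163 and 1240 FPKM. The granule genes Ngp (2.69 and 1.10 versus 42.8 and 39.9 FPKM) and Camp (2.98 and 0.465 versus 29.0 and 31.2 FPKM) were among those that rose. In the dendritic cell list none of 6 tested genes passed (limma; 2 had an unadjusted p under 0.05), and the sums were 5.12 and 39.0 FPKM versus 21.9 and 22.2 FPKM. Of its genes Batf3 and Itgax were highest in the second wild-type library, at 12.4 and 11.3 FPKM, Cd209a was at 0.739 and 5.46 versus 7.45 and 8.39 FPKM, and Clec9a was at 0 or 0.0515 FPKM in each library.

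Of 7 plasmacytoid dendritic cell genes 3 rose and 4 did not pass, and 5 had a positive and 2 a negative difference. The sums were 146 and 168 FPKM versus 351 and 349 FPKM, but Ly6d made up most of the labelled-knockout sums. Ly6d, which B cell precursors also express, rose from 39.1 and 28.3 FPKM to 247 and 248 FPKM. Siglech was at 1.11 and 1.79 versus 4.42 and 4.01 FPKM without passing. Tcf4 lay the other way, at 5.45 and 12.0 versus 4.13 and 3.90 FPKM, also without passing. All 6 endothelial and all 9 fibroblast and fat cell genes were highest in the second wild-type library, with sums of 30.2 and 173 versus 21.9 and 21.2 FPKM and of 243 and 844 versus 184 and 185 FPKM. None of the 4 and 7 tested genes of these lists passed (limma; 3 and 2 had an unadjusted p under 0.05).

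**Figure D4:**
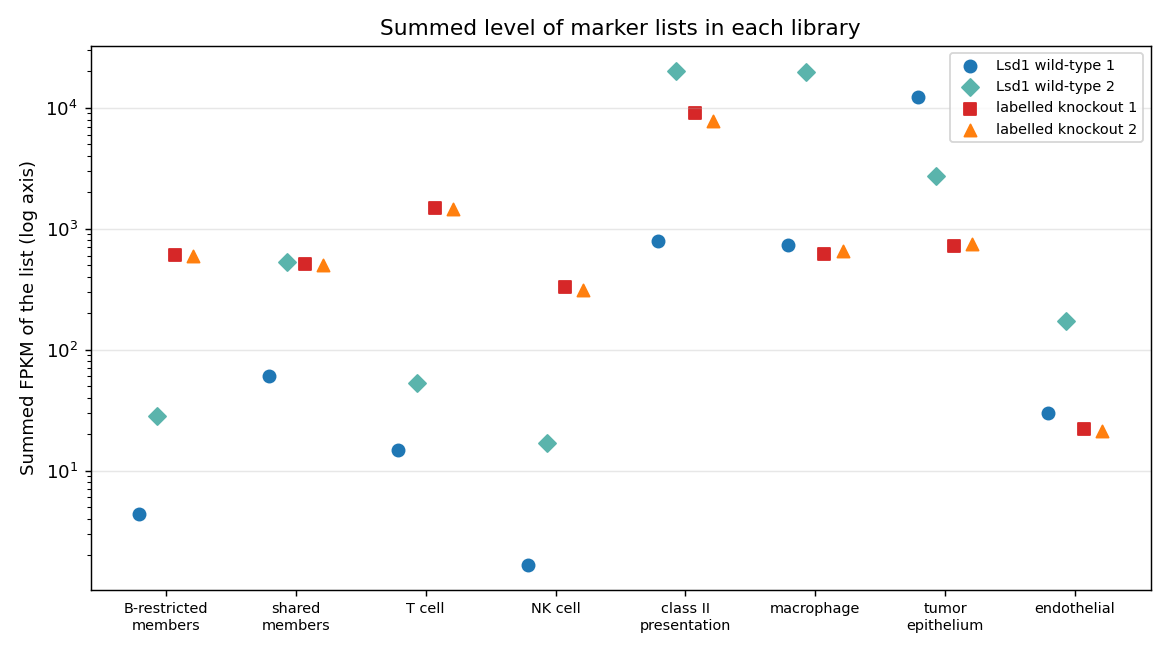
Summed FPKM of 8 gene lists in each library, on a logarithmic axis, with 1 point per library. Apoe makes up most of the macrophage sum in each library. The B-restricted, T cell and NK cell sums are highest in the labelled-knockout libraries, the second wild-type library has the highest macrophage and class II sums (19798 and 20289 FPKM), and the first has the highest epithelial sum (12238 FPKM).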

How the data were processed

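RNA of sorted cells was made into libraries with a low-input Clontech SMARTer v4 mRNA kit, per the labels' protocols. The authors deposited 1 FPKM value per gene and library; the unit was read from the values, since the file header names none. The build is mm9 per the submitters' processing notes; the aligner, the counter and the annotation: not given in the sources used here. Among values under 0.1 FPKM, 49.6 to 60.4% stood in whole-number ratios between libraries within 0.2% (0.5 to 1.0% off those steps), which gave the relative depths; read counts were not rebuilt.

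The 92 spike-in rows, all at 0, were left out, and 27 rows with dates for symbols were not named. Genes with at least 1 FPKM in 2 libraries (11138) were fitted with limma 3.58.1 (R 4.3.3) on log2(FPKM + 1), using a robust, trended prior and genotype as the sole term; differences understate changes near the pseudocount. With 2 libraries per group an exact permutation test cannot go below p = 0.333. On simulated data over 11138 genes for this comparison, the fit called 24% of genes changed 2-fold, 86.4% at 4-fold and 99.6% at 16-fold, with 0.2 false calls per run. The simulated noise was independent between genes, and changes were added only to genes with higher levels. The real wild-type libraries differed by whole lists of genes, such as the macrophage list, so these rates may not hold for the data.

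The members and lists were chosen with earlier results of these data known. The text names all members, Kdm1a, the 4 or fewer genes per other list with the lowest p among those averaging 1 FPKM or more, and defining markers near 0; other genes named were chosen after their values were seen. Some genes that this rule picks are not reported here, though list counts include them. Gcet2, Ighd and Ighm had no row.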

Additional observations from a re-analysis of the deposited data

How the results depend on the processing

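The count of 14 genes that rose was between 10 and 17 with a pseudocount of 0.1, a filter at 5 FPKM, a common total, median centring, quantile normalization, a plain prior, weights per genotype group and the replicate block. With no filter it was 0 of 32 (limma; 20 at an unadjusted p under 0.05), and 2 rose and 0 fell over all genes; 0 and 0 of the other receptor pathway genes then passed. Leaving out 1 library gave 0 to 30 genes higher and 0 to 4 lower among the members (0 without either labelled-knockout library, with 15 and 16 at an unadjusted p under 0.05), 0 to 4269 higher and 0 to 3643 lower over all genes, and 0 to 28 higher and 0 to 5 lower among the pathway genes. The cause was not tested. The replicate block gave 346 higher and 155 lower in place of 1059 and 778 over all genes and 4 in place of 7 pathway genes; same-numbered libraries did not deviate together (r = -0.06 across genes). Weights per genotype group gave 13 pathway genes. The member median of 2.59 was 4.01 with a pseudocount of 0.1 and 2.05 to 3.52 over the left-out libraries. Over B-restricted genes it was 6.01 with that pseudocount and 3.84 to 4.40 over the left-out libraries, and over shared genes 0.058 to 2.89; these splits were added after seeing the data. Without the first wild-type library the difference turned negative, and without the second it was at its highest, for Cd72 (-0.23 and 4.52), Lyn (-0.31 and 1.88), Pik3ap1 (-0.17 and 1.52), Blnk (-0.48 and 0.89), Pou2f2 (-0.27 and 2.71), Cd38 (-0.56 and 1.76), Cd40 (-0.35 and 3.52) and Ly86 (-2.43 and 3.41). Kdm1a ranged from -1.25 (limma, adjusted p = 1.04e-05, without the second wild-type library) to -0.087 (without the first). Depth is known only relative to 1 library, so no counting interval is given for the low values.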
